A study of Drosophila melanogaster with 9 samples.

Results

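Glucose refed brains were compared with normally sated brains across all genes, to describe which genes stood apart from the sated level after a glucose meal that followed a fast, and on which side. The comparison used 6 of the 9 samples in the series, 3 refed and 3 sated, chosen by the condition in their labels. The 3 fasted samples were set beside them to show the level of a gene in a continued fast.

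All samples were central brains of male w1118CS flies that were 7 days old, with 10 brains in a sample. The titles of all 9 samples carry CD, which in the study stands for its control diet. Refed flies were wet-starved from 5 PM, and at lights on, 9 AM, were given 400 mM D-glucose to feed on freely for 2 h. Sated flies were not fasted overnight and were wet-starved for 1 h before dissection, and fasted flies were wet-starved from 5 PM for 20 h in all. Refed and sated flies therefore differed both in the fast and in the food, glucose alone against the control diet, and these cannot be told apart. The 1 h without food before dissection is given for the sated flies only. No clock time is given for the sated flies, so the part of the time of day was not tested. Refed flies fed for 2 h from 9 AM and fasted flies were starved for 20 h from 5 PM. These groups may therefore differ in the time of day as well, and that part was not tested either. The labels describe 4 biological replicates in each condition, of which 3 were analysed here, and state that all dissections and extractions were done on the same day.

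As background, sugar circulates in flies mainly as trehalose, which trehalase splits into glucose for the brain. Sugar beyond immediate need is turned into fatty acids, while an overnight fast draws on stored fat and on amino acids. Nuclear receptors and zinc finger factors such as Hr38 and sr are switched on within the hour by neuronal activity in insects, and insulin signalling, ribosome assembly and translation follow nutrient supply.

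Gene-strand counts numbered 7014586 to 7741902 in the refed and 5869311 to 7897838 in the sated libraries. Reads on the strand opposite to a gene made up 9.72% to 12.4% of counts in refed and 10.0% to 20.6% in sated libraries, with sated replicate 2 at the upper end. The fasted libraries held 4957138 to 7890221 gene-strand counts, and their opposite-strand share ran from 9.59% to 28.5%. Refed replicate 3 stood apart from the other refed libraries. Its counts differed from those of refed replicates 1 and 2 by a chi-square of 8.90 and 8.34 per degree of freedom, against 2.29 between these replicates. The same measure ran from 2.77 to 4.77 between sated and from 2.98 to 7.68 between fasted libraries. Levels are given in CPM, counts scaled to library size with the TMM factors of edgeR, which set typical genes equal across libraries. Genes chosen after their values were seen show the difference of refed replicate 3 from the other refed libraries. Hsp26, a small heat shock protein, was at 2.59, 3.42 and 32.8 CPM in refed replicates 1, 2 and 3, while Akh, the hormone of the corpora cardiaca, was at 56.2, 47.5 and 0.411 CPM and jhamt, the last enzyme of juvenile hormone synthesis in the corpora allata, at 12.3, 13.7 and 0 CPM. Summed levels of 10 neuronal markers were 12041 to 13510 CPM in refed and 13105 to 13781 CPM in sated brains, and those of 10 glial markers were 3009 to 3439 and 3368 to 3620 CPM, so the labelled tissue showed its markers. In whole tissue, fewer cells of a type and less RNA per cell cannot be told apart.

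Of 8931 genes tested, 16 differed between refed and sated brains (0.179%), with 8 higher in refed (0.0896%) and 8 lower. A gene was called when the p of edgeR's quasi-likelihood test, adjusted by the Benjamini-Hochberg method over all genes tested, was under 0.05. Every adjusted p below comes from this test. The higher genes were Sirup, phu, Treh, Cyp6g1, ebd1, CG8665, Non1 and FASN1. The lower genes were Hr38, CG5404, trpl, Tdh, sr, AttC, CG42807 and Arr1. The 3 refed and the 3 sated samples did not overlap for any of the 16 genes, nor for 1628 of all genes tested (18.2%). Without adjustment, 1027 genes had p under 0.05 (11.5%), 543 of them higher (6.08%) and 484 lower (5.42%), and the median log2 fold change over all genes was -0.0030. The shares of 6.08% and 5.42% are the background for every count of list members at an unadjusted p under 0.05. The share of 18.2% is the background wherever refed and sated samples are said not to overlap.

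The number of called genes moved with single libraries. Leaving out refed replicate 1, 2 or 3 gave 7, 5 and 75 genes, and leaving out sated replicate 1, 2 or 3 gave 2, 23 and 7. The balance of directions moved as well, with 5 of 23 genes higher without sated replicate 2, 2 of 7 without sated replicate 3 and 5 of 5 without refed replicate 2, against 8 of 16. All 16 genes were among the 75 found without refed replicate 3, the library that stood apart, and 2 of them, Sirup and AttC, were called without sated replicate 1. Sirup was the only one of the 16 called in all 17 fits that were run, and the direction of all 16 was the same in each fit that tested them. Losses of a call named below are those on leaving out 1 sample, and other fits lost calls as well. Over the 17 fits, Hr38 was called in 14, and trpl, Tdh, Non1 and FASN1 in 9 each.

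**Figure D1:**
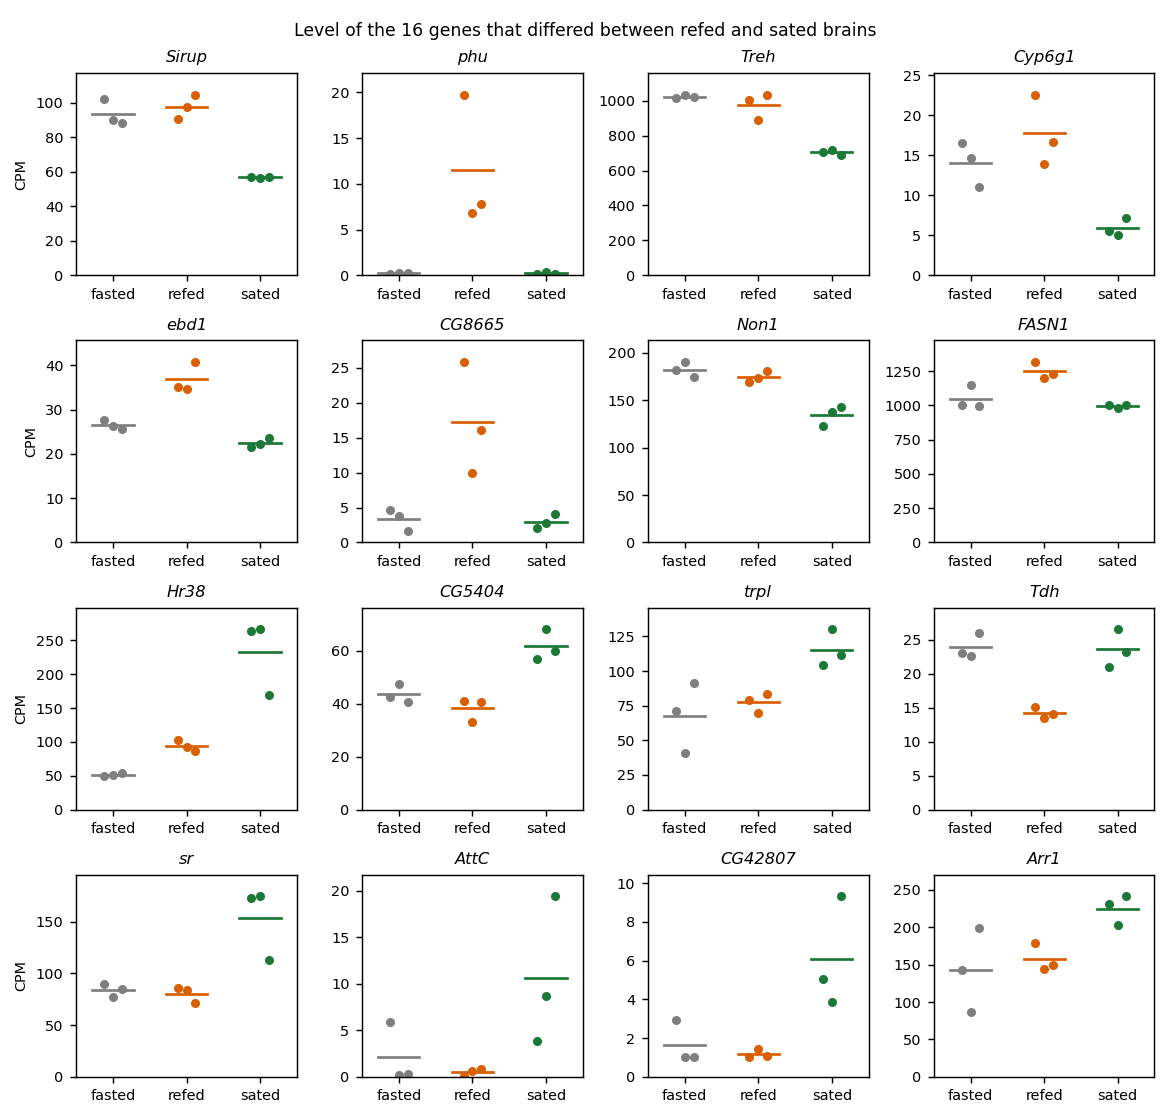
Level in CPM (linear axis from 0) of the 16 genes that differed between refed and sated brains, with 1 panel for a gene, 1 point for a sample and a line at the mean of 3 samples. Sirup, Treh and Non1 lie at the fasted level in refed brains, and Hr38 lies between the fasted and sated levels. The refed samples of phu, CG8665, FASN1 and ebd1 lie above both other groups, and those of Tdh below both.

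A first group of genes was at the fasted level after refeeding. Sirup, an assembly factor of succinate dehydrogenase (FBgn0031971, chr2L:7998869-7999676, BDGP6), was at 90.7, 97.7 and 104 CPM in the refed samples and at 56.7, 56.6 and 57.1 CPM in the sated samples. Fasted samples had 102, 89.7 and 88.1 CPM. All refed samples lay above all sated samples and overlapped with the fasted range. The log2 fold change, refed minus sated, was 0.78 (SE 0.067, adjusted p = 0.00223).

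Treh, the trehalase that splits trehalose into glucose (FBgn0003748, chr2R:21074018-21088945), had 1003, 888 and 1033 CPM in refed and 707, 719 and 687 CPM in sated samples. Its fasted samples were at 1017, 1033 and 1021 CPM, so that refed replicates 1 and 3 were close to the fasted samples and replicate 2 lay lower, still above every sated sample. Treh in refed brains was above the sated level by 0.46 (SE 0.061, adjusted p = 0.0233) on the log2 scale. Its refed minus fasted difference was -0.089 with a 95% confidence interval of -0.23 to 0.048. Treh lost its call without refed replicate 1 (adjusted p = 0.0779), sated replicate 1 (0.148) and sated replicate 3 (0.0735).

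Non1, a nucleolar GTPase of ribosome assembly (FBgn0028473, chr2R:9396265-9398734), was at 169.7, 174 and 181 CPM in refed samples, against 123, 137 and 142 CPM in sated and 182, 190.3 and 174 CPM in fasted samples. The refed samples lay above all sated samples and reached into the fasted range. Its log2 fold change was 0.37 (SE 0.060, adjusted p = 0.0473) against sated brains. Non1 lost its call without refed replicate 1 (adjusted p = 0.104), refed replicate 2 (0.169), sated replicate 1 (0.205), sated replicate 2 (0.0700) and sated replicate 3 (0.0704). LTV1, which takes part in building the small ribosomal subunit, had 184, 190.1 and 202 CPM in refed and 161, 165 and 166 CPM in sated samples, without overlap, but did not pass the test (log2 fold change 0.22, adjusted p = 0.107). Of 29 ribosome biogenesis genes tested, Non1 was the only one called, 3 were higher and none lower at an unadjusted p under 0.05, and their median log2 fold change was 0.076.

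Cyp6g1, a cytochrome P450 known for insecticide resistance (FBgn0025454, chr2R:12185667-12188431), was at 22.6, 13.9 and 16.7 CPM in refed and 5.52, 5.06 and 7.15 CPM in sated samples, a log2 fold change of 1.56 (SE 0.21, adjusted p = 0.0233). Fasted samples, at 16.6, 14.6 and 11.0 CPM, overlapped with the refed and not with the sated samples. Cyp6g1 lost its call without sated replicate 1 (adjusted p = 0.148) and sated replicate 3 (0.0507). The P450 family as a whole was spread in both directions, with 9 of 51 tested genes higher and 7 lower at an unadjusted p under 0.05 and a median log2 fold change of 0.011. Cyp28d1, the next P450 by p, had 153, 141 and 144 CPM in refed and 107, 116 and 120.3 CPM in sated samples and fell just outside the threshold (log2 fold change 0.35, adjusted p = 0.0504), while Cyp4d21 was at 1.17, 0.263 and 0.685 CPM against 2.84, 3.67 and 2.43 CPM (log2 fold change -2.04, adjusted p = 0.0990).

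Of the lower genes, sr was at the fasted level. This zinc finger factor of the EGR type (FBgn0003499, chr3R:18090803-18135583) had 86.0, 84.0 and 71.1 CPM in refed, 173, 175 and 113 CPM in sated and 90.1, 76.9 and 85.2 CPM in fasted samples. Sated replicate 3 was closest to the refed samples, but no refed sample reached it. Its log2 fold change was -0.93 (SE 0.15, adjusted p = 0.0473) against sated brains and -0.083, with an interval of -0.28 to 0.11, against fasted brains. The call of sr was lost without refed replicate 1 (adjusted p = 0.104), refed replicate 2 (0.169), sated replicate 1 (0.217) and sated replicate 2 (0.0700).

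Hr38, a nuclear receptor of the NR4A type (FBgn0014859, chr2L:20683462-20714588), lay between the fasted and the sated level. Refed samples had 103, 92.7 and 86.0 CPM, sated samples 264, 266 and 169 CPM and fasted samples 49.3, 50.5 and 53.5 CPM. None of the 3 groups overlapped. The log2 fold change of Hr38 was -1.31 (SE 0.15, adjusted p = 0.0158) against sated brains and 0.86 (SE 0.078, adjusted p = 0.00616) against fasted brains. The call against sated brains was lost without refed replicate 2 (adjusted p = 0.0747) and sated replicate 1 (0.129).

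Hr38 and sr were the 2 called genes among 11 activity-regulated genes tested, and 6 of the 11 were lower and none higher at an unadjusted p under 0.05, against 5.42% and 6.08% of all genes. CG14186 had 249, 235 and 267 CPM in refed and 389, 389 and 303 CPM in sated samples, which did not overlap, and fell just outside the threshold (log2 fold change -0.53, adjusted p = 0.0504). The zinc finger factor cbt, which also responds to sugar, had 51.4, 48.5 and 43.2 CPM against 62.4, 66.2 and 53.4 CPM (log2 fold change -0.35, adjusted p = 0.194). The median of the list was -0.14. The list holds genes known from earlier results of these data, so its count is a description.

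CG5404 (FBgn0038354, chr3R:15704676-15708434) was at or below the fasted level, with 40.9, 33.1 and 40.7 CPM in refed, 57.0, 68.1 and 59.8 CPM in sated and 42.5, 47.5 and 40.6 CPM in fasted samples. All refed samples lay below all sated samples, and its log2 fold change was -0.69 (SE 0.10, adjusted p = 0.0403). CG5404 lost its call without refed replicate 1 (adjusted p = 0.0728), refed replicate 2 (0.0984), sated replicate 1 (0.129) and sated replicate 3 (0.0704).

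Another group of genes stood apart from the sated level in refed brains without being called between sated and fasted brains, where phu had too few counts to be tested. The widest difference was that of phu, an alkaline phosphatase (FBgn0043791, chr3R:9494801-9496723). It had 152, 52 and 57 counts in the refed libraries and 1, 2 and 1 in the sated libraries, which is 19.7, 6.84 and 7.81 CPM against 0.149, 0.349 and 0.128 CPM. Fasted samples had 0.185, 0.200 and 0.256 CPM. Every refed sample was far above all 6 other samples, and refed replicate 1 was the highest. The fitted log2 fold change was 5.74 (SE 0.68, adjusted p = 0.0158) against sated brains and 5.58 against fasted brains (adjusted p = 0.0225). The sated libraries held only 4 counts in all. The ratio of summed counts, each divided by the summed library size of its group without TMM factors, was 60.0. Its 95% exact interval of 23.2 to 222 covers counting error only. The call of phu was lost without sated replicate 1 (adjusted p = 0.129) and sated replicate 3 (0.0704). Of the 4 alkaline phosphatase genes that could be tested, phu was the only one called.

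CG8665, an enzyme of folate metabolism that oxidizes 10-formyltetrahydrofolate (FBgn0032945, chr2L:21371227-21377995), was at 25.8, 9.99 and 16.04 CPM in refed samples. Sated samples had 2.09, 2.79 and 4.09 CPM and fasted samples 4.62, 3.81 and 1.66 CPM. These overlapped with each other, and all refed samples lay above both. Its log2 fold change was 2.49 (SE 0.37, adjusted p = 0.0403) against sated brains, and 2.41 against fasted brains, which did not pass (adjusted p = 0.127). CG8665 lost its call without sated replicate 1 (adjusted p = 0.205), sated replicate 2 (0.0639) and sated replicate 3 (0.0704).

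CG8665 was the only called gene of the folate and one-carbon list, in which 3 of 10 tested genes were higher (30.0%, against 6.08% of all genes) and none lower at an unadjusted p under 0.05, with a median of 0.35. Sardh, sarcosine dehydrogenase, had 3.89, 1.97 and 2.47 CPM in refed, 0.746, 0.524 and 1.28 CPM in sated and 3.69, 5.21 and 6.52 CPM in fasted samples (log2 fold change 1.64 against sated, adjusted p = 0.173). Unlike CG8665, Sardh was highest in the fasted brains, and refed brains lay between. The same order held for pug, a folate interconverting enzyme, at 14.9 ± 3.34 CPM (SD, n = 3) in refed, 11.2 ± 0.271 CPM in sated and 19.1 ± 3.38 CPM in fasted brains, though its refed minus sated difference did not pass (log2 fold change 0.41, adjusted p = 0.380).

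FASN1, the fatty acid synthase (FBgn0027571), had 1316, 1198 and 1228 CPM in refed and 1003, 982 and 1002 CPM in sated samples. Fasted samples were at 999.5, 1146 and 993 CPM. The refed samples lay above all other samples. The increase over sated brains was small, 0.32 (SE 0.051, adjusted p = 0.0473) on the log2 scale, and that over fasted brains did not pass (log2 fold change 0.24, adjusted p = 0.688). FASN1 lost its call without refed replicate 1 (adjusted p = 0.140), refed replicate 2 (0.0994), sated replicate 1 (0.212), sated replicate 2 (0.123) and sated replicate 3 (0.107).

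With FASN1, 7 of the 14 genes tested in the fatty acid synthesis list were higher at an unadjusted p under 0.05 (50%, against 6.08% of all genes) and none was lower. The list also holds acyl-CoA synthetases, such as Acsf2 and bgm. It was drawn up with earlier results of these data known, so its count is a description and not a measure of synthesis alone. Their median log2 fold change was 0.11. ATPCL, the ATP citrate lyase that supplies acetyl-CoA, had 406, 395 and 402 CPM in refed and 350.3, 334 and 369 CPM in sated samples (log2 fold change 0.18, adjusted p = 0.168). Acsf2, an acyl-CoA synthetase, was at 21.4, 22.4 and 23.4 against 15.97, 17.5 and 17.6 CPM (log2 fold change 0.39, adjusted p = 0.159), and bgm, a synthetase of very long chains, at 14.8, 13.3 and 9.05 against 5.67, 4.02 and 6.26 CPM (log2 fold change 1.19, adjusted p = 0.0602). FASN1 alone passed the test. In each of these genes the refed and sated samples did not overlap, nor did they for 18.2% of all genes tested. Nothing is read from this, since the genes were chosen by their p.

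Genes of triglyceride metabolism lay on both sides of the sated level, and none of the 13 tested was called. The acyltransferase mino, which acts early in glycerolipid synthesis, had 75.0, 80.7 and 73.5 CPM in refed, 59.7, 54.5 and 60.0 CPM in sated and 73.8, 75.7 and 71.8 CPM in fasted samples (log2 fold change 0.39, adjusted p = 0.0514). CG5966 had 1.43, 0.657 and 0.960 CPM in refed and 7.76, 4.02 and 25.0 CPM in sated samples, with fasted samples at 23.3, 26.8 and 12.7 CPM. Its difference from the fasted brains passed (log2 fold change -4.34, adjusted p = 0.00616) and that from the sated brains did not (log2 fold change -3.62, adjusted p = 0.0651), the sated samples being widely spread. Lsd-1, a perilipin of the lipid droplet, was at 21.9, 13.9 and 10.6 CPM in refed and 8.81, 6.99 and 10.3 CPM in sated samples (log2 fold change 0.81, adjusted p = 0.248).

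Prat2, which catalyzes the first step of purine synthesis, was at 34.2, 17.4 and 11.4 CPM in refed, 2.39, 1.92 and 5.62 CPM in sated and 7.38, 6.61 and 5.63 CPM in fasted samples. All refed samples lay above all others, and the difference from sated brains fell just outside the threshold (log2 fold change 2.59, adjusted p = 0.0504). No gene of the 11 tested in purine synthesis was called, 3 were higher at an unadjusted p under 0.05, and the median was 0.032. Pfas, a later enzyme of this pathway, had 29.7, 21.6 and 24.7 CPM in refed and 17.9, 18.3 and 21.1 CPM in sated samples (log2 fold change 0.40, adjusted p = 0.271).

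ebd1, a nuclear cofactor of Wingless signalling (FBgn0035153, chr3L:682885-685549), had 35.0, 34.6 and 40.7 CPM in refed, 21.5, 22.2 and 23.6 CPM in sated and 27.7, 26.2 and 25.6 CPM in fasted samples. The refed samples were the highest of all 9, and the log2 fold change over sated brains was 0.70 (SE 0.094, adjusted p = 0.0233). The difference from the fasted brains did not pass (log2 fold change 0.46, adjusted p = 0.192). The call of ebd1 was lost without refed replicate 1 (adjusted p = 0.0520), refed replicate 2 (0.0714), sated replicate 1 (0.148) and sated replicate 3 (0.0663).

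Tdh, threonine dehydrogenase (FBgn0036997, chr3L:20466944-20469592), lay below both other groups in refed brains. It had 15.0, 13.4 and 14.1 CPM in refed, 21.0, 26.5 and 23.2 CPM in sated and 23.1, 22.6 and 26.0 CPM in fasted samples. Sated and fasted samples overlapped, and no refed sample reached either group. Tdh fell by a log2 fold change of -0.73 (SE 0.12, adjusted p = 0.0473) against sated and -0.77 (adjusted p = 0.0319) against fasted brains, while its sated minus fasted difference was -0.030, with an interval of -0.27 to 0.21. The call against sated brains was lost without refed replicate 1 (adjusted p = 0.104), refed replicate 2 (0.169), sated replicate 1 (0.129), sated replicate 2 (0.0700) and sated replicate 3 (0.0956).

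Of the 16 called genes, 4 were also called between sated and fasted brains and 3 between refed and fasted brains. These comparisons share samples with each other. Sirup, Hr38, Treh and Non1 were the former, and Hr38, phu and Tdh the latter.

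To place refed brains on the scale from fasted to sated, the 24 genes called between sated and fasted brains were followed (0.268% of 8957 tested). For each, the share of the fasted to sated gap in mean log2 CPM that refed brains covered was computed, so that 0 is the fasted mean and a full share the sated mean. The share has samples in common with the tests and is a description. Its median was 43.4%. It was under 25% in 6 genes, between 25% and 75% in 11 and over 75% in 7. For comparison, 10 of 9025 genes were called between refed and fasted brains (0.111%).

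**Figure D2:**
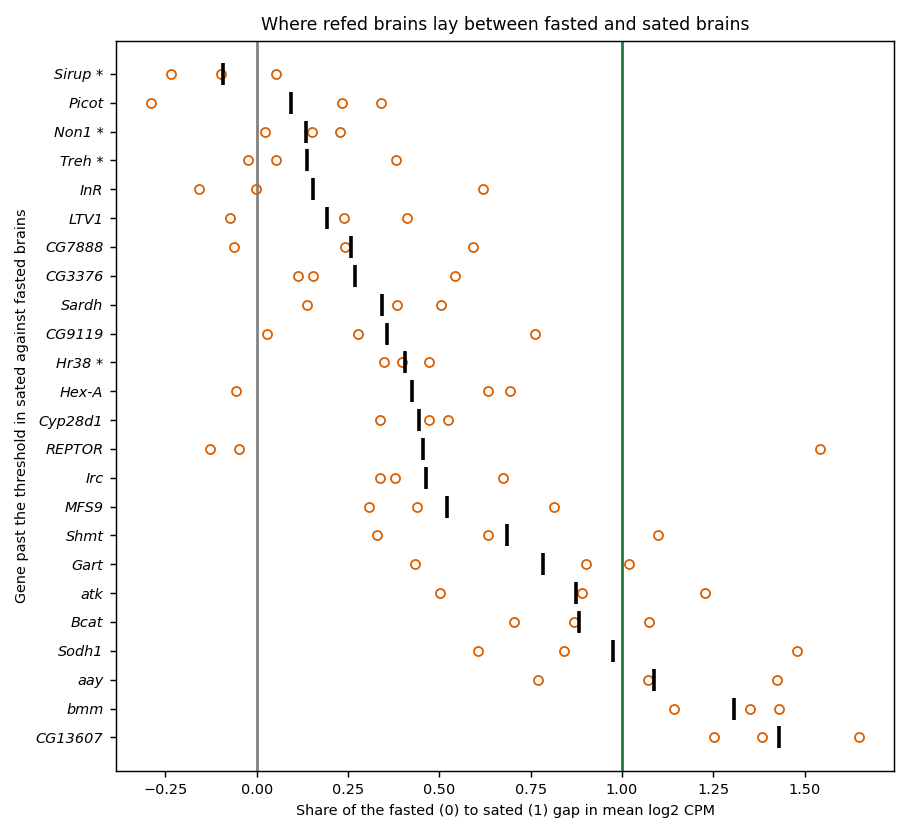
Place of refed brains on the way from the fasted (0) to the sated (1) mean of log2 CPM, for the 24 genes called between sated and fasted brains. Open circles are the 3 refed samples, the black tick is their mean, and an asterisk marks a gene also called between refed and sated brains. Sirup, Picot, Non1, Treh, InR and LTV1 lie nearest to the fasted level and aay, bmm and CG13607 lie past the sated level.

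The 6 genes nearest to the fasted level were Sirup (-9.33%), Picot (9.43%), Non1 (13.5%), Treh (13.7%), InR (15.3%) and LTV1 (19.1%). InR, the insulin receptor, had 279, 265 and 215 CPM in refed, 193, 183 and 191 CPM in sated and 263, 262 and 269 CPM in fasted samples. Refed replicate 3 lay between the fasted and sated samples, while the other refed samples were at or above the fasted level. The difference from sated brains did not pass with all samples (log2 fold change 0.41, adjusted p = 0.0729) and passed without refed replicate 3 (log2 fold change 0.52, adjusted p = 0.00132). Leaving out any other sample gave InR an adjusted p of 0.172 to 0.328, and it passed in 4 of the 17 fits. Picot, a transporter of the SLC17 type, was at 180.4, 185 and 211 CPM in refed and 148, 160.0 and 152 CPM in sated samples (log2 fold change 0.32, adjusted p = 0.0727), without overlap.

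In the middle range were the transporters CG7888 and MFS9, the enzymes Sardh, Shmt, Hex-A, Irc and Cyp28d1, the factors Hr38 and REPTOR, and CG3376 and CG9119. Hex-A, hexokinase, had 379, 384 and 330.4 CPM in refed, 418, 417 and 389.6 CPM in sated and 347, 319 and 337 CPM in fasted samples, which places refed replicate 3 with the fasted samples and the other refed replicates nearer to the sated samples. Irc, an immune regulated catalase, was at 229, 208 and 232 CPM in refed, 186, 178 and 201 CPM in sated and 251, 288 and 236 CPM in fasted samples. It overlapped with neither group. REPTOR, a transcription factor that acts downstream of TORC1, was at 317, 312 and 233 CPM in refed samples, so that replicate 3 lay below every sated sample (251 to 266 CPM) and the others lay within the fasted range (292 to 324 CPM). Its refed minus sated log2 fold change was 0.15 (adjusted p = 0.586) with all samples and 0.28 (adjusted p = 0.0138) without refed replicate 3. Leaving out any other sample gave REPTOR an adjusted p of 0.602 to 0.833, and it passed in 1 of the 17 fits.

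MFS9, an SLC17-type transporter that was higher in sated than in fasted brains, had 12.1, 10.9 and 16.2 CPM in refed, 21.0, 17.5 and 17.7 CPM in sated and 9.42, 8.61 and 7.80 CPM in fasted samples. Its refed samples overlapped with neither group. CG9119 was at 11.4, 8.42 and 4.66 CPM in refed, 4.33, 4.02 and 2.43 CPM in sated and 15.3, 11.2 and 9.60 CPM in fasted samples, a wide spread among refed samples. CG3376, at 30.0 to 36.9 CPM in refed, 23.2 to 25.4 CPM in sated and 36.9 to 41.1 CPM in fasted samples, lay closer to the fasted side (27.0%).

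The 7 genes with a share over 75% were Gart, atk, Bcat, Sodh1, aay, bmm and CG13607. Gart, an enzyme of purine synthesis, had 29.3, 19.5 and 17.5 CPM in refed, 19.7, 13.4 and 21.5 CPM in sated and 39.7, 40.7 and 48.9 CPM in fasted samples. Bcat, the transaminase of branched-chain amino acids, had 13.6, 9.34 and 11.5 CPM in refed, 8.66, 9.95 and 11.9 CPM in sated and 29.0, 20.2 and 36.8 CPM in fasted samples. In both genes, and in Shmt, atk, Sodh1 and aay, the refed samples overlapped with the sated and not with the fasted samples.

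The intervals of the refed minus sated difference show how far these genes could still be from the sated level. The 95% interval was -0.19 to 0.72 for Gart, -0.22 to 0.55 for Bcat and -0.27 to 0.17 for aay, the phosphoserine phosphatase that completes serine synthesis. It was wider, -0.65 to 0.80 for the sorbitol dehydrogenase Sodh1 and -0.66 to 1.20 for atk. For Shmt, serine hydroxymethyltransferase, it was -0.077 to 0.56.

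Beyond the sated mean lay bmm and CG13607, and aay by a small margin (109%). The lipase bmm, which breaks down stored triglyceride, had 26.5, 28.4 and 25.8 CPM in refed, 29.3, 30.6 and 29.6 CPM in sated and 39.7, 42.9 and 43.1 CPM in fasted samples (131%). All refed samples lay below all sated samples, but the difference did not pass (log2 fold change -0.15, interval -0.34 to 0.030, adjusted p = 0.518). CG13607 had 18.3, 12.9 and 10.8 CPM in refed, 8.81, 7.51 and 7.02 CPM in sated and 2.03, 2.40 and 1.79 CPM in fasted samples (143%). Refed samples were above all others, and the difference from sated brains did not pass (log2 fold change 0.85, adjusted p = 0.138).

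Arr1 and trpl, both lower in refed brains, are genes of the light response of the eye. Arr1, an arrestin that stops the light response (FBgn0000120, chr2L:18078269-18081307), had 179, 144 and 150.0 CPM in refed, 231, 203 and 241 CPM in sated and 143, 86.9 and 199.7 CPM in fasted samples. The channel gene trpl (FBgn0005614, chr2R:9753697-9765518) was at 79.3, 70.0 and 83.8 CPM in refed, 105, 130.3 and 112 CPM in sated and 70.9, 41.1 and 91.6 CPM in fasted samples. For both, the refed samples lay below all sated samples and within the wide fasted range. The log2 fold changes against sated brains were -0.52 (SE 0.085, adjusted p = 0.0477) for Arr1 and -0.58 (SE 0.091, adjusted p = 0.0473) for trpl. Arr1 lost its call without refed replicate 2 (adjusted p = 0.178), sated replicate 1 (0.261) and sated replicate 3 (0.120), and trpl without refed replicate 1 (adjusted p = 0.105), refed replicate 2 (0.169), sated replicate 1 (0.129) and sated replicate 3 (0.0794).

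Of 32 phototransduction and eye genes tested, 15 were lower and none higher at an unadjusted p under 0.05 (46.9%, against 5.42% of all genes), and the median log2 fold change was -0.39. This median ran from -0.42 to -0.18 over the fits, and moved by more than the spread between samples in 3 of them and not in 13. inaC, the protein kinase C of the eye, was at 30.6, 32.9 and 30.6 CPM against 49.3, 37.7 and 53.2 CPM (log2 fold change -0.59, adjusted p = 0.0727), and ninaB, which makes the chromophore, at 48.5, 44.1 and 52.0 CPM against 63.7, 70.0 and 58.5 CPM (log2 fold change -0.41, adjusted p = 0.0922). The main opsin ninaE was not ordered by group, with 65.3, 2.76 and 72.0 CPM in refed and 5.08, 292 and 18.6 CPM in sated samples. The summed level of 12 retinal markers, of which Rh6 and w were under 1 CPM in every sample, was 690 to 827 CPM in refed, 1001 to 1194 CPM in sated and 491 to 869 CPM in fasted brains. The part of the amount of eye tissue in these values was not tested.

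**Figure D3:**
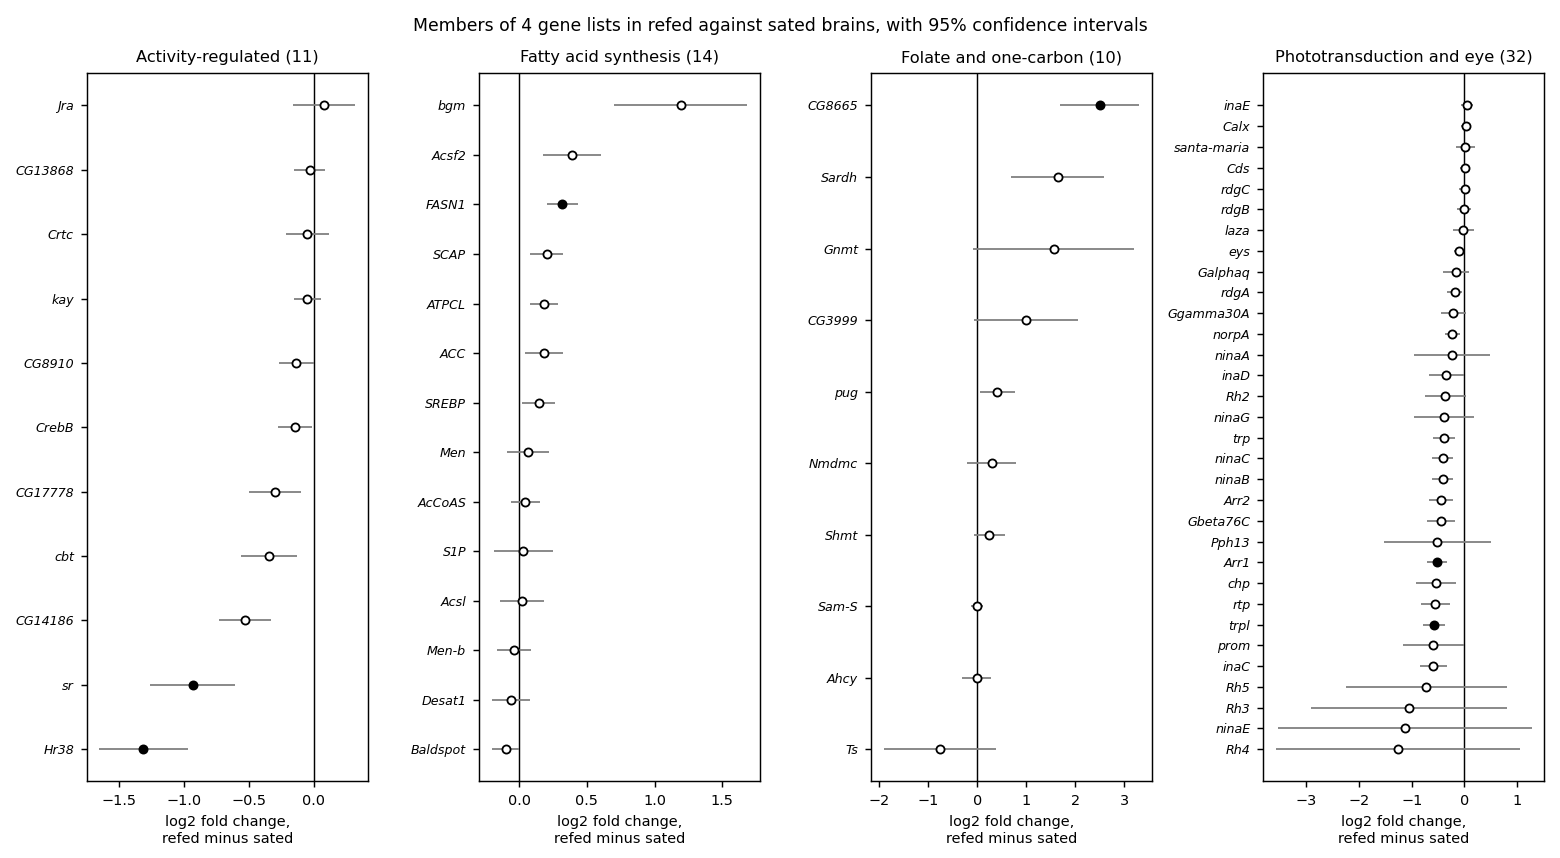
Log2 fold change, refed minus sated, with its 95% confidence interval for every tested member of 4 lists, with filled points for genes called at an adjusted p under 0.05. The x axes differ between panels. Most activity-regulated and eye genes lie below 0, with Hr38, sr, trpl and Arr1 called, and most fatty acid synthesis and folate genes lie above 0, with FASN1 and CG8665 called.

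AttC, an attacin directed against bacteria (FBgn0041579, chr2R:13393705-13394667), was low in refed brains and uneven among sated brains. It had 1, 5 and 6 counts in the refed and 26, 50 and 152 counts in the sated libraries, or 0.130, 0.657 and 0.823 CPM against 3.88, 8.73 and 19.4 CPM. Fasted samples were at 5.91, 0.200 and 0.256 CPM, with replicate 1 within the sated range. The fitted log2 fold change was -4.32 (SE 0.69, adjusted p = 0.0473). The ratio of summed counts, sated over refed, each divided by the summed library size of its group without TMM factors, was 20.7. Its 95% exact interval of 11.6 to 40.6 covers counting error only. AttC lost its call without refed replicate 1 (adjusted p = 0.148), refed replicate 2 (0.169) and sated replicate 3 (0.0704). Only 9 of the 35 antimicrobial peptide genes had enough counts to be tested, and 3 of these were lower and none higher at an unadjusted p under 0.05, with a median of -0.078.

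PGRP-SB1, a peptidoglycan recognition protein, was at 1.04, 0.263 and 0.411 CPM in refed and 2.69, 4.19 and 6.64 CPM in sated samples and fell just outside the threshold (log2 fold change -2.96, adjusted p = 0.0504). Of 21 genes of the Imd and Toll pathways it was 1 of 2 that were lower at an unadjusted p under 0.05, with a list median of 0.067. CG42807 (FBgn0261989, chr2R:13570595-13572759) had a like pattern at low counts, with 1.04, 1.45 and 1.10 CPM in refed, 5.08, 3.84 and 9.32 CPM in sated and 2.95, 1.001 and 1.02 CPM in fasted samples, and a log2 fold change of -2.36 (SE 0.38, adjusted p = 0.0477). CG42807 lost its call without refed replicate 1 (adjusted p = 0.149), refed replicate 2 (0.169), sated replicate 1 (0.166) and sated replicate 3 (0.0956).

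The lipoprotein gene apolpp, which encodes the main lipid carrier of the blood, was at 1455, 1201 and 995 CPM in refed, 2146, 1708 and 2385 CPM in sated and 1483, 1354 and 1235 CPM in fasted samples (log2 fold change -0.78 against sated, adjusted p = 0.0514). Of 11 lipid carrier genes, 3 were lower (27.3%, against 5.42% of all genes) and none higher at an unadjusted p under 0.05, among them Npc2a, a sterol carrier, at 21.7, 23.4 and 25.4 CPM against 32.8, 32.1 and 30.8 CPM (log2 fold change -0.45, adjusted p = 0.0729). The summed level of 10 fat body markers was 999 to 1460 CPM in refed and 1715 to 2389 CPM in sated brains. Nearly all of it was apolpp, while the defining storage protein genes Lsp2, Lsp1alpha and Lsp1gamma, with Fbp2, to and Yp1, were under 1 CPM in every sample.

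Some glial and muscle markers lay on the lower side without a call. Gat, the glial GABA transporter, had 319, 265 and 312 CPM in refed, 394, 431 and 369.9 CPM in sated and 322, 359 and 348 CPM in fasted samples (log2 fold change -0.42, adjusted p = 0.0602). With nrv2, wrapper and repo it was 1 of 4 of the 10 glial markers that were lower at an unadjusted p under 0.05. Of the 10 glial markers, 6 had a fold change below 0 and 4 above 0, with a median of -0.11. For muscle, 4 of 9 tested markers were lower at an unadjusted p under 0.05, with a summed level of 61.0 to 124 CPM in refed and 82.1 to 163 CPM in sated brains. Fasted brains ranged from 69.9 to 748 CPM for these muscle markers, with fasted replicate 2 at the upper end, and the part of this library in the fasted level was not tested. No neuronal marker of 10 tested had an unadjusted p under 0.05.

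Sugar handling beyond Treh was mixed. AGBE, the glycogen branching enzyme, had 66.5, 52.2 and 50.6 CPM in refed and 41.2, 34.8 and 46.1 CPM in sated samples (log2 fold change 0.46, adjusted p = 0.182), and Tps1, which makes trehalose, 41.6, 26.4 and 19.7 CPM against 23.9, 16.1 and 18.9 CPM (log2 fold change 0.57, adjusted p = 0.399). Of 13 genes of this list, Treh alone was called and the median was -0.0048. The sugar-induced transcription factor sug was at 2.72, 2.76 and 1.92 CPM in refed, 0.597, 0.349 and 1.28 CPM in sated and 0.369, 0.601 and 0.128 CPM in fasted samples (log2 fold change 1.64, adjusted p = 0.177). Pgd and CG8036, a dehydrogenase and a transketolase of the pentose phosphate pathway, were at 13.3 ± 3.10 and 79.8 ± 21.4 CPM (SD, n = 3) in refed and 9.32 ± 0.444 and 59.3 ± 6.63 CPM in sated brains, and were the 2 of 7 genes of that pathway with an unadjusted p under 0.05. None of the 7 was called, and their median was 0.26.

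No translation factor or autophagy gene was called. Of 42 translation initiation and elongation factors, 11 were higher (26.2%, against 6.08% of all genes) and 1 lower (2.38%, against 5.42%) at an unadjusted p under 0.05, with a median of 0.063. eEF2, an elongation factor, had 1067, 1058 and 1123 CPM in refed, 962, 943 and 965 CPM in sated and 1046, 1086 and 1089 CPM in fasted samples (log2 fold change 0.17, adjusted p = 0.183). Of 19 autophagy genes, 5 were higher (26.3%) and none lower, among them Atg6 at 30.6, 33.3 and 31.5 CPM against 23.6, 22.4 and 26.6 CPM (log2 fold change 0.38, adjusted p = 0.136). Of 81 cytosolic ribosomal protein genes, 5 were higher and none lower, a share close to that of all genes.

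Of 21 glutathione S-transferases, 5 were lower (23.8%, against 5.42% of all genes) and none higher at an unadjusted p under 0.05, with a median of -0.13. This median ran from -0.21 to -0.041 over the fits, and moved by more than the spread between samples in 6 of them and not in 10. GstS1 had 41.3, 41.6 and 43.3 CPM in refed and 54.6, 53.4 and 51.2 CPM in sated samples (log2 fold change -0.34, adjusted p = 0.0784), and GstE6 3.89, 3.94 and 5.35 CPM against 7.91, 7.33 and 8.56 CPM (log2 fold change -0.86, adjusted p = 0.109). Of 65 nuclear genes of oxidative phosphorylation, 6 were lower (9.23%, against 5.42% of all genes) and none higher, and 58 had a fold change below 0, with a median of -0.094. None of these genes was called.

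Neuropeptide genes were spread in both directions, with 4 of 34 higher and 8 lower at an unadjusted p under 0.05 and none called. Crz, which encodes corazonin, had 26.6, 22.9 and 31.8 CPM in refed, 36.6, 38.2 and 37.0 CPM in sated and 30.5, 33.0 and 35.3 CPM in fasted samples (log2 fold change -0.47, adjusted p = 0.138). Mip, the myoinhibitory peptide gene, was at 133, 121 and 120.4 CPM in refed and 89.6, 80.2 and 112 CPM in sated samples (log2 fold change 0.40, adjusted p = 0.170), and FMRFa at 49.8, 49.0 and 59.4 CPM against 41.1, 33.0 and 44.1 CPM (log2 fold change 0.41, adjusted p = 0.186). Ilp5, an insulin-like peptide, had 18.6, 20.2 and 24.4 CPM in refed, 26.1, 29.0 and 24.6 CPM in sated and 17.0, 16.6 and 20.0 CPM in fasted samples (log2 fold change -0.34, adjusted p = 0.318).

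Among lists with 7 or more genes tested, cell type markers aside, those with no member at an unadjusted p under 0.05 were synaptic vesicle release (19 tested), aminoacyl-tRNA synthetases (17), the mitochondrial genome (12) and branched-chain amino acid breakdown (7). Their medians were -0.042, 0.065, -0.058 and 0.053.

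**Figure D4:**
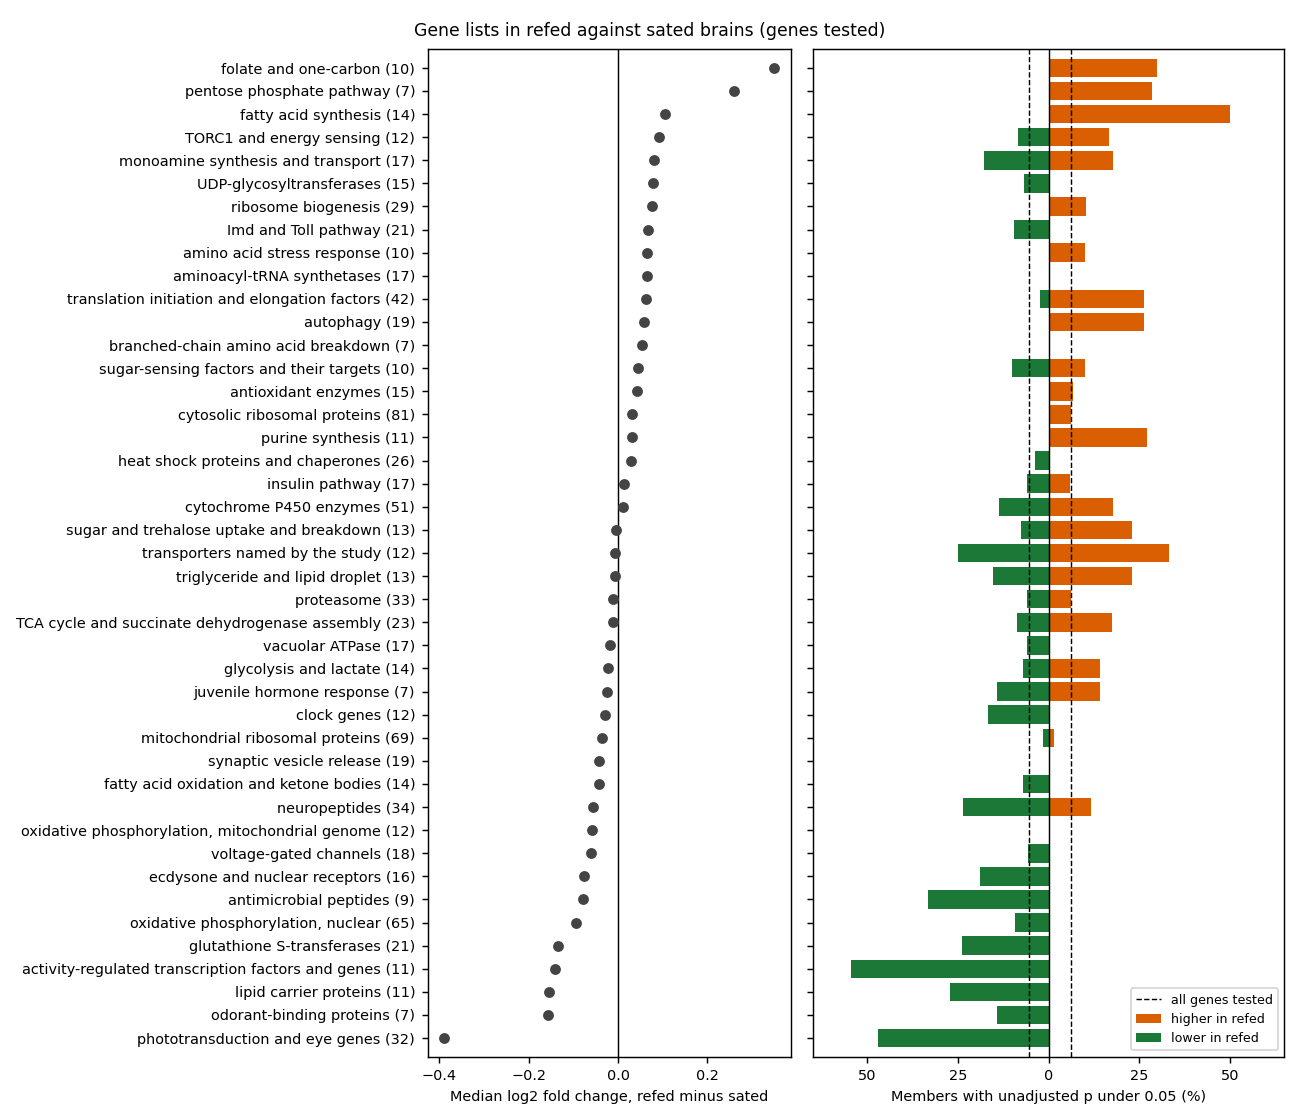
Gene lists in refed against sated brains, with the number of genes tested in brackets. The left panel gives the median log2 fold change, refed minus sated, and the right panel the percentage of members with an unadjusted p under 0.05 that were higher or lower in refed brains, where dashed lines mark 6.08% and 5.42% of all genes. Lists with under 7 genes tested, cell type markers and noncoding RNAs are not shown. In the right panel, activity-regulated genes (54.5%) and eye genes (46.9%) have the longest bars on the lower side and fatty acid synthesis (50%) the longest on the higher side. The lists were chosen with earlier results of these data known, so the bars are a description.

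The 10 genes that came next by p after the called genes had an adjusted p of 0.05003 to 0.05042, and Prat2 followed them. Cyp28d1, Pkn, Rif1, ana1 and CG8475 stood on the higher side, and Phyhd1, PGRP-SB1, dac, CG42240 and CG14186 on the lower side. Rif1, known for its part in DNA replication timing, had 15.8, 15.9 and 14.3 CPM in refed and 8.96, 9.78 and 9.19 CPM in sated samples (log2 fold change 0.72), and the kinase gene Pkn 352, 356 and 366 CPM against 292, 278 and 308 CPM (log2 fold change 0.28). Phyhd1 was at 14.9, 11.8 and 14.3 CPM against 20.7, 22.9 and 26.7 CPM (log2 fold change -0.79) and dac, a nuclear factor with a part in mushroom body development, at 118, 130.2 and 115 CPM against 159.7, 148 and 153 CPM (log2 fold change -0.35). The refed and sated samples did not overlap for any of the 10 genes, nor for 18.2% of all genes tested, and nothing is read from this since the 10 were chosen by their p.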

How the data were processed

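RNA of central brains was sequenced in 3 refed, 3 sated and 3 fasted samples, grouped by their labels. Alignment was by STAR, and the authors deposited raw read counts per sample on 17489 genes, unstranded and for each strand. The submitters' processing notes also name BDGP6, SAMtools 1.4, HTSeq and DESeq2 1.18.0, which were their tools. The STAR version and the annotation are not given in the sources used here. The study's methods name DESeq2 for its tests and do not say which samples entered a fit. The gene-strand counts were used. Uniquely mapped reads with no gene, or with several, on the strand counted were left out. They made up 28.4% to 45.3% of the uniquely mapped reads in a library. Reads that mapped to several places were left out as well and are not in this share.

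On the 6 samples compared, edgeR 4.0.16 in R 4.3.3 was used to drop genes with few counts (filterByExpr), to normalize by TMM and to fit the quasi-likelihood model, and genes with a Benjamini-Hochberg adjusted p under 0.05 were called. The scripts were tested on simulated data. CPM used TMM over all 9 samples. Intervals of summed count ratios were exact (Clopper-Pearson, 95%) and cover counting error only, since reads carried no molecular identifiers. Depth was 4957138 to 7897838 gene-strand counts, which limits precision for genes with few counts. Nothing beyond the labels says how samples of a group were raised, so p-values measure the spread between these samples.

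Symbols came from the gene name table for 17215 identifiers, and from the study's own gene table for 88 retired ones. The authors' fold changes and p-values in that table were not used. Coordinates are from the Ensembl release 115 annotation of BDGP6. The genes named are those called in refed against sated brains, the next 10 by p, up to 4 members with the smallest p in each of 57 lists, and those called in sated against fasted brains. The members and lists were chosen with earlier results of these data known, and 6 list entries that matched another gene or did not belong were left out before their values were read. Lists were described by counts and medians, with no set test. Sequences were not used here. Alternatives were DESeq2 1.42.0, other normalizations and filters, all 9 samples in 1 fit, a replicate block, robust empirical Bayes, the unstranded counts, the opposite-strand share as a covariate, and leaving out each sample.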

Additional observations from a re-analysis of the deposited data

How the results depend on the processing

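The 16 called genes became 51 with DESeq2 (23 higher), 25 with upper-quartile normalization (14 higher), 121 with no filter, 7 with at least 10 counts in every sample (5 higher), 53 with all 9 samples in 1 fit (34 higher), 34 with robust empirical Bayes (22 higher) and 41 with unstranded counts. All 16 were among those called with DESeq2, upper-quartile normalization, no filter and unstranded counts, 13 were among the 53 and 10 among the 34. The higher share was 56% with upper-quartile normalization, 71.4% with the stricter filter, 64.2% with all 9 samples and 64.7% with robust estimation, against 50%, and ran from 21.7% without sated replicate 2 to 100% without refed replicate 2 when 1 sample was left out. RLE normalization gave 17 genes and the opposite-strand covariate 11, 8 of them among the 16. Leaving out 1 sample gave 2 to 75 genes. Same-numbered refed and sated samples did not deviate together (correlations of -0.11, -0.0028 and -0.016), and a replicate block gave 11 genes, 9 of them among the 16. Whether fasted samples pair by number with refed or sated samples was not tested. For refed against fasted brains, 10 genes became 30 with DESeq2 and 6 with the replicate block, and for sated against fasted brains, 24 became 110 with DESeq2 and 72 with the replicate block. The median place of refed brains, 0.43, was 0.43 with RLE normalization. Of 3858 fold changes of named genes under alternatives, none changed sign among called genes, 83 were no longer past the threshold and 157 newly past it. Of 896 list medians, 60 moved by more than the spread between samples. Causes were not tested. Genes with few counts, such as phu, AttC and CG42807, were limited by depth.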
